A study of Homo sapiens with 20 samples.

Results

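CTCF binding was set against H3K27 acetylation in LNCaP cells that had received control siRNA, to ask where CTCF sat relative to acetylated chromatin: inside it, at its borders, in its interruptions or far from it. LNCaP is an androgen-responsive prostate cancer cell line derived from a lymph node metastasis. These cells had been transfected with 20 nM of a pooled non-targeting siRNA, replated with a second transfection midway, and collected at 144 h. CTCF and H3K27ac were each immunoprecipitated and sequenced (ChIP-seq) in 2 libraries, 4 of the 20 libraries of the series. Single sentences below also use 2 H3K4me3 libraries of the control cells. They likewise use 2 CTCF libraries of LNCaP cells given 20 nM of a pooled CTCF siRNA for 144 h. A CTCF site was kept when overlapping peaks were present in both CTCF libraries, and an H3K27ac region when overlapping regions were present in both H3K27ac libraries, on chromosomes 1 to 22 and X. This left 33377 of 50720 merged CTCF peaks and 54904 of 96020 merged H3K27ac regions. The line is a single source of cells, and the labels do not say whether the replicates were separate cultures. The study's methods describe each ChIP experiment as a biological duplicate. Differences between libraries may be biological or technical.

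CTCF is a zinc-finger protein that binds a long, asymmetric DNA motif. It stops cohesin, the ring complex that extrudes chromatin loops, and loops form most often between motifs that point at each other; this is the basis of its known role as an insulator between regulatory domains. H3K27ac is the acetylation of lysine 27 of histone H3, placed by the acetyltransferases p300 and CBP at active promoters and enhancers, and in prostate cells it marks the enhancers that the pioneer factor FOXA1 opens.

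The individual lists held 37969 and 46293 CTCF peaks, of which 88.2% and 72.2% overlapped a peak of the other CTCF library. The H3K27ac lists held 86949 and 69949 regions, of which 64.6% and 85.2% overlapped a region of the other library. The lists do not give the read depth, and the read totals in the study's reporting summary entered no calculation here. Acetylation within 1 kb of a start site was present at 13 of 13 luminal prostate genes (among them KLK3, FOXA1 and KRT8) and at 0 of 6 basal genes. It was present at 1 of 9 fibroblast genes (COL1A1) and at 1 of 6 leukocyte genes (CD68). The luminal genes listed were thus all acetylated at a start, and the basal markers KRT5 and TP63 had no acetylation at their starts. Over all 20090 protein-coding genes the share was 55.9%. The median acetylated region was 1950 bp wide (quartiles 1400 and 2900 bp, range 550 to 209500 bp), and the regions covered 139 Mb, or 4.91% of the assembled chromosomes. The median CTCF site was 392 bp wide, and its summits in the 2 libraries lay a median of 18 bp apart. Regions were joined into an acetylated stretch where 5 kb or less lay between them, which gave 40236 stretches, 31022 of a single region and 9214 of 2 to 28 regions.

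Sites among those with the highest mean CTCF fold enrichment in each position relative to acetylation are shown first, because they let the motif be read in each setting. Fold enrichment is the peak's signal over local background as the peak caller gave it. Each sequence is the reference (hg19) in the direction of the motif, with 20 bases on either side of the best match to the CTCF core consensus in capitals. The consensus has 14 letters, was searched on both strands within 100 bp of the summit, and up to 2 mismatches were allowed. Inside a region these were an intron of ZNF385A, an intergenic site 22975 bp from a start of RABL2A, and an intron of CELSR2.
ZNF385A intron, chr12:54773602-54773655, minus strand: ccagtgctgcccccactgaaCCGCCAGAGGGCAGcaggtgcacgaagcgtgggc
RABL2A side, chr2:114361754-114361807, minus strand: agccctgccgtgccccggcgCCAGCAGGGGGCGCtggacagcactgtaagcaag
CELSR2 intron, chr1:109806348-109806401, plus strand: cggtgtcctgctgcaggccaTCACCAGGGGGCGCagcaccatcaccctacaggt
In a gap of a stretch they were the start of ACBD4 and an intergenic site 22749 bp from the start of SLC45A3, the gene of the luminal protein prostein.
ACBD4 start, chr17:43212764-43212817, plus strand: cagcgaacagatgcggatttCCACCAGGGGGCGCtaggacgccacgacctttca
SLC45A3 side, chr1:205626835-205626888, minus strand: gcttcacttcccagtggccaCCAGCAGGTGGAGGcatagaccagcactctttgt
Beside the end of a stretch they were introns of TBC1D16 and ZNF536.
TBC1D16 intron, chr17:77979759-77979812, plus strand: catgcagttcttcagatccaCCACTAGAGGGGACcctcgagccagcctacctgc
ZNF536 intron, chr19:31157380-31157433, plus strand: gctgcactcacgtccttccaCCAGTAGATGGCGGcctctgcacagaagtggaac
Over 100 kb from any region they were 2 intergenic sites, with ADAMTS16 and B3GAT1 as the genes of the nearest protein-coding starts.
ADAMTS16 side, chr5:4879974-4880027, plus strand: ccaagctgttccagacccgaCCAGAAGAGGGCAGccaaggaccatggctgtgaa
B3GAT1 side, chr11:134945696-134945749, plus strand: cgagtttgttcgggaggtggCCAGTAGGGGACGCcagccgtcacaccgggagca

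The strongest site inside acetylation, in ZNF385A, had a fold enrichment of 52.9 in CTCF replicate 1 and 81.2 in replicate 2, and its summit lay 566 bp inside a region of 1450 bp. The strongest site in a gap, at ACBD4, had 58.9 and 48.6 and lay 43 bp from the nearer region, in a gap of 1800 bp. The strongest site beside a stretch, in TBC1D16, had 56.7 and 72.9 and lay 2190 bp to the left of a region of 1650 bp. The strongest site far from acetylation, on chromosome 5, had 46.96 and 52.5 and lay 278216 bp from the nearest region. Each of these is the maximum of its position with chromosome 8 left out. A maximum depends on the number of sites (5380 inside regions and 268 in gaps, chromosome 8 included). They therefore do not compare the positions.

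CTCF was found inside acetylated regions more often than its surroundings were. Of the 33377 sites, 5380 had their summit inside a region, which is 16.1% (95% Wilson interval 15.7 to 16.5). The same positions moved 10 kb to the left were inside in 6.94% and moved to the right in 6.82%, a mean of 6.88%. The observed share was therefore 2.34 times that of the moved positions. Moves of 20, 50 and 100 kb gave 6.83%, 6.82% and 6.77%, so the comparison hardly depended on the distance moved. A move of 2 kb still landed inside in 7.94%, and one of 1 Mb in 6.02%. Taking each CTCF library with each H3K27ac library, the share inside lay between 15.3% and 20.4% (17.9% ± 2.11, SD, n = 4 combinations), and the ratio between 2.39 and 2.68 (2.53 ± 0.135). The combinations share libraries and are not independent. The share inside exceeded that of the moved positions on all 23 chromosomes, with shares from 6.08% on chromosome 18 to 24.4% on chromosome 19. The main values come from sites merged over both CTCF libraries, and the merged ratio of 2.34 lay below the range over the combinations. Made within each CTCF library, a contrast gives 2 pairs, for which the smallest two-sided p-value of an exact permutation test is 0.5. No test over libraries was therefore made, and the intervals cover counting error only.

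Around the edges the CTCF density changed over a short distance. Within 500 bp inside an edge there were 1805 sites in 54.6 Mb, or 33.1 sites per Mb, and within 500 bp outside there were 585 sites in 52.0 Mb, or 11.3 per Mb. The ratio of outside to inside was 0.340, against 1.06 for the positions moved 10 kb. It was 0.405 to 0.440 over the 4 library combinations and under 1 on 23 of 23 chromosomes. The density did not peak at the edge from either side. It was 23.7 per Mb in the last 250 bp of regions, 42.6 per Mb in the 250 bp before that, and 50.3 per Mb at 750 to 1000 bp from an edge. Just outside it was 12.4 per Mb in the first 250 bp and 10.0 in the next, under the 15.6 and 15.7 per Mb of positions moved 50 kb. The moved positions include sites from inside regions, which by construction adds to their density outside.

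**Figure D1:**
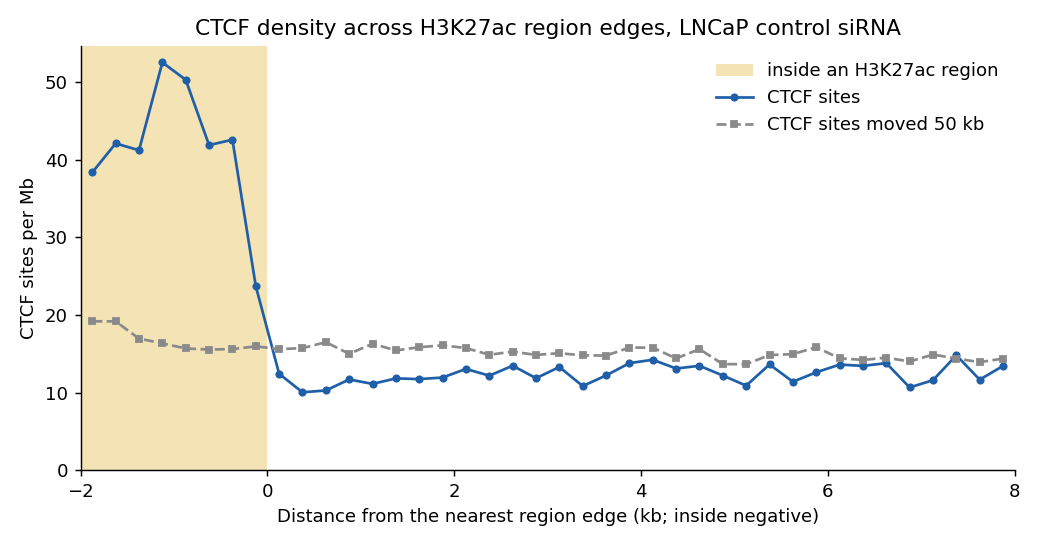
CTCF sites per Mb (vertical) in 250-bp bins by distance from the nearest H3K27ac region edge in kb (horizontal, inside negative and shaded), for CTCF sites and for the same sites moved 50 kb to either side. The density falls from 42.6 per Mb at 250 to 500 bp inside, through 23.7 in the last 250 bp, to 12.4 in the first 250 bp outside. Outside regions the density stays mostly below the moved positions.

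Farther out, the density rose slightly up to 20 kb from a region and fell beyond that. Between 1 bp and 1 kb from a region there were 11.1 sites per Mb (1115 sites, 3.34%), at 1 to 5 kb 12.5 per Mb (3894 sites, 11.7%), and at 5 to 20 kb 12.6 per Mb (8457 sites, 25.3%). At 20 to 100 kb there were 10.9 per Mb (10583 sites, 31.7%), and over 100 kb away 6.14 per Mb (3948 sites, 11.8%). Inside regions the density was 38.6 per Mb. Nearer than 20 kb to a region there were fewer sites than moved positions: those moved 10 kb fell in the first 1 kb in 4.87%, at 1 to 5 kb in 14.2% and at 5 to 20 kb in 30.5%. Sites inside a region land mostly outside it when moved 10 kb, which by construction can add to each of these shares. How much it added was not determined. Beyond 20 kb sites and moved positions had nearly the same shares, 31.8% for moved positions at 20 to 100 kb and 11.8% over 100 kb. The median distance of the sites outside regions was 21409 bp.

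Inside regions, CTCF lay towards the middle. When the way from the edge to the centre of a region was split into 5 equal parts, each with 20% of the bases, the outermost part held 10.9% of the 5380 sites and the central part 26.5%. The positions moved 10 kb that fell inside regions (2315 to the left, 2273 to the right) had 19.2% and 19.5% in the outermost part and 20.2% and 17.3% in the central one. Over the library combinations the outermost part held 11.7% to 12.6% and the central part 24.8% to 26.0%. Regions of 1 to 2 kb and of 2 to 3 kb had 29.5% and 29.2% in the central part. In regions over 10 kb the outermost and the central part held 23.2% and 23.5%.

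Of the acetylated regions, 5074 held a CTCF site, which is 9.24% (9.002 to 9.49), against 3.97% for the moved sites, and 276 held more than 1. Wider regions more often held a site: 5.37% (4.64 to 6.22) of regions up to 1 kb, 8.72% of those of 2 to 3 kb, 19.7% of those of 5 to 10 kb, and 34.8% (31.3 to 38.5) of the 663 regions over 10 kb. Per Mb the order was the opposite, from 60.3 sites per Mb in the narrowest regions to 26.8 per Mb in the widest. The moved sites were found in 1.49% of the narrowest and in 26.4% of the widest regions.

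**Figure D2:**
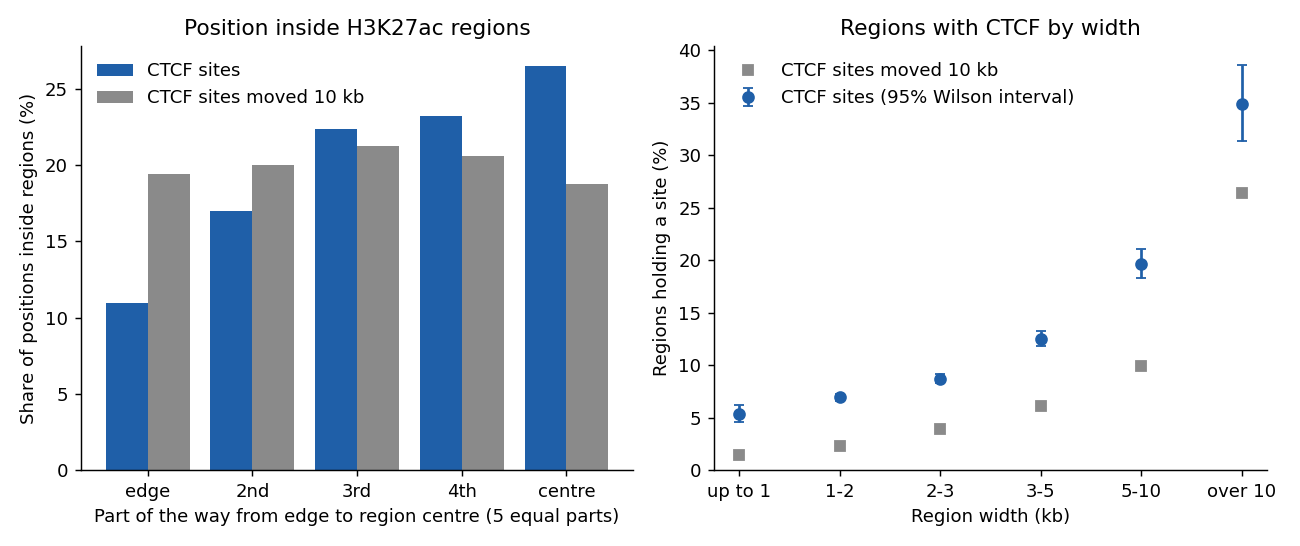
Left, share of positions inside H3K27ac regions (%) in each of 5 equal parts of the way from region edge to centre, for CTCF sites and for sites moved 10 kb (mean of both directions). Right, share of regions holding a CTCF site (%) by region width in kb, with 95% Wilson intervals, against sites moved 10 kb; CTCF sites lean to the centre, and in each width class more regions hold a site than hold a moved site.

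CTCF was also less frequent in the interruptions of acetylated stretches than beside the stretches. The 14517 gaps of up to 5 kb between regions held 268 sites in 29.3 Mb, or 9.15 per Mb (another 151 pairs of regions abutted). The flanks of the same stretches, up to 2.5 kb beyond each end, held 592 sites in 46.1 Mb, or 12.9 per Mb, and the regions of these stretches 2605 sites, or 37.0 per Mb. At the distances from a region that the gaps offered, the flank density would have given 371 gap sites, so the ratio of gap to flank was 0.722. It was 0.824 to 0.925 over the library combinations and under 1 on 18 of 23 chromosomes, some of which had as few as 1 gap site. A site was present in 3 of 3063 gaps up to 500 bp (0.0979%, 0.0333 to 0.288), in 1.46% of gaps of 1 to 2 kb and in 3.57% of those of 4 to 5 kb. Per Mb this was 4.04 in the shortest gaps, against 25.6, 16.2 and 12.8 for sites moved 10 kb, 50 kb and 1 Mb, and 8.14 in the longest, against 18.1, 17.3 and 14.1. Sites from inside regions can land in gaps when moved, which by construction adds to the moved densities.

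Beyond the ends of acetylated stretches CTCF was not more frequent than moved sites either. A site lay within 5 kb beyond 4736 of the stretch ends, or 5.89% (5.72 to 6.05), and the moved sites within 5 kb of 7.30% of ends. Both ends had a site within 5 kb in 193 stretches, 0.480% against 0.799% for moved sites. Moved 50 kb and 1 Mb, sites lay within 5 kb of 7.25% and 6.39% of ends. Of the 535 stretches of 5 or more regions 54.0% held a site within them, against 8.59% of the single regions, and such sites moved 10 kb can land just beyond an end. At the ends of these stretches 5.42% (4.22 to 6.94) had a site within 5 kb, against 12.3%, 10.2% and 7.29% for sites moved 10 kb, 50 kb and 1 Mb, so the difference shrank with the distance moved.

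The direction of the motif changed with position at the ends. A motif is said to point towards a stretch when its forward strand, read as in the sequences above, runs into the stretch; motifs that point towards each other across a stretch are called convergent. Of the 998 sites with a motif in the last 500 bp of a stretch, 679 pointed inwards, which is 68.0% (65.1 to 70.9). Among the 370 sites in the first 500 bp outside, 221 pointed towards the stretch, or 59.7% (54.7 to 64.6). The share then fell to 56.0% at 500 to 1000 bp outside, 55.0% at 1 to 2 kb and 49.3% (47.2 to 51.3) at 2 to 5 kb, and over all 3665 sites up to 5 kb outside it was 52.1% (50.5 to 53.7). Deeper within stretches it fell to 55.6% at 500 to 1000 bp from the end and 48.6% at 1 to 2 kb.

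The inward direction at the ends was present in every library combination, with 64.5% to 65.8% in the last 500 bp within and 59.9% to 62.4% in the first 500 bp outside. It was over 50% on 21 of 23 chromosomes within and on 18 of 23 outside. At the left and the right end of stretches the share within was 69.9% and 66.2%. Among sites over 5 kb from any protein-coding start it was 68.8% (65.3 to 72.1, 708 sites), and it was 74.9% (67.9 to 80.8) for motifs without a mismatch, 69.8% with 1 and 63.2% with 2 mismatches. Outside, it was 57.9% (45.0 to 69.8) without a mismatch, 53.3% with 1 and 66.5% with 2, with intervals that overlap.

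The same asymmetry was seen when acetylation was read from the motif outwards. Of the 24611 sites with a motif, 10.1% had an H3K27ac region 1 kb ahead of the motif and 8.16% 1 kb behind it, a ratio of 1.24. In H3K27ac replicate 1 alone these were 10.7% and 8.51%, and in replicate 2 they were 9.004% and 7.07%. At 3 kb the shares were 7.13% and 6.53%, and at 5 kb they were 6.87% and 6.70%. Over 5 kb from starts (20922 sites) the shares at 1 kb were 7.25% and 5.62%, a ratio of 1.29. At promoters the motif also had a direction: of 484 motif sites up to 1 kb upstream of a start and inside a region, 62.4% (58.0 to 66.6) lay on the strand of the gene, and so did 62.3% (57.5 to 66.8) of 411 such sites outside regions. Up to 1 kb downstream of a start the shares were 43.1% (36.7 to 49.8) of 218 sites inside and 42.1% (34.96 to 49.6) of 171 sites outside.

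**Figure D3:**
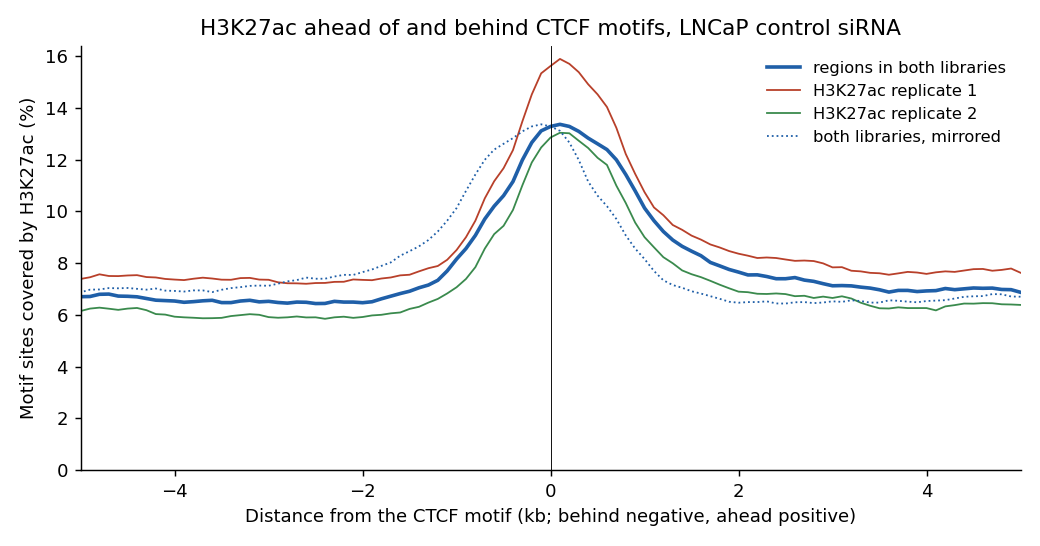
Share of the 24611 CTCF motif sites covered by an H3K27ac region (%) at each distance from the motif in kb, with positive distances ahead of the motif and negative ones behind it. Lines are regions present in both libraries, each H3K27ac library alone, and the first of these mirrored; at 1 kb coverage is 10.1% ahead and 8.16% behind.

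Pairs of sites on either side of a stretch were compared with the same pairs after moving all sites by 1 Mb. With both neighbours within 500 kb and both with a motif (20797 stretches), 31.7% (31.1 to 32.3) of pairs were convergent and 21.7% divergent. The moved sites gave 31.7% and 20.7%, so stretches in general had no more convergent neighbours than other places. In the 472 such stretches of 20 kb or more, 37.9% (33.7 to 42.4) of pairs were convergent and 18.0% divergent, against 31.6% and 19.9% of moved sites. Within 20 kb of both ends of any stretch, divergent pairs were more frequent than convergent ones, 28.8% against 18.9%, and likewise for moved sites, 29.7% against 19.1%. Neighbouring stretches share sites, so these pairs are not independent.

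CTCF fold enrichment varied little with the distance to acetylation. Inside regions the median was 10.9 in CTCF replicate 1 (quartiles 6.89 and 17.6) and 12.2 in replicate 2 (7.65 and 19.7). It was highest at 5 to 20 kb, with 11.98 and 14.5, and over 100 kb away it was 10.2 and 12.1. The median of the mean of both libraries inside regions was 0.963 times that of sites over 20 kb away. Over the library combinations this ratio was 0.929 to 0.956, and it was under 1 on 22 of 23 chromosomes, but against sites over 100 kb away it was 1.05. Among sites with a motif it was 1.08, so the sign depended on the sites compared. With the enrichment of CTCF replicate 1 and of replicate 2 taken separately, the main ratio was 0.991 and 0.917. Against sites over 100 kb away it was 1.07 and 1.006, and among sites with a motif 1.12 and 1.008. In replicate 2 the last 2 contrasts thus showed almost no difference. Spearman's rho between enrichment and distance over the 27997 sites outside was -0.07 in both libraries, a description across sites that share their libraries.

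Within regions the enrichment was higher near the edge. Sites in the last 250 bp had medians of 13.5 and 14.4, and those 1 to 2 kb from an edge 9.77 and 10.8. A motif was present in 76.7% of the former and in 53.4% of the latter. Of the 10% of sites with the lowest fold enrichment, 22.4% were inside regions in replicate 1 and 24.1% in replicate 2. Just below the median these shares were 14.3% and 15.3%, and among the highest 10% they were 17.8% and 14.4%.

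Sites inside acetylation less often had the motif. A match with up to 2 mismatches was present at 60.7% of sites inside and at 76.2% of sites outside, against 5.40% and 5.23% of windows moved 1000 bp to the left and right. Over the library combinations the shares were 52.1% to 58.8% inside and 64.6% to 74.0% outside. Of the 8766 sites without a motif, 24.1% (23.2 to 25.02) were inside, against 11.6% (10.6 to 12.6) of the 3924 sites with a match free of mismatches; moved by 10 kb, these were inside in 7.30% and 6.96%. The sites without a motif were also weaker, with medians inside regions of 8.05 and 9.43, against 18.3 and 20.7 for the sites whose motif had no mismatch. Those motif sites had lower medians outside regions, 15.5 and 18.1.

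Part of the sites inside lay at gene starts. Of the sites inside, 24.1% lay within 1 kb of the start of a protein-coding transcript, 5.20% in other exons, 39.5% in introns and 31.2% between genes; of those over 100 kb from any region 2.00% lay at a start and 63.8% between genes. Read the other way, 59.6% (57.5 to 61.6) of the 2179 sites at starts were inside regions, against 15.2% of intronic and 10.5% of intergenic sites. Moved by 10 kb, these were inside in 10.8%, 7.86% and 5.10%. Without the sites at starts the share inside was 13.1%, or 1.98 times that of moved positions. H3K4me3, the mark of active promoters, covered 52.4% of the sites inside and 15.5% of those within 1 kb outside. After CTCF siRNA a peak remained in replicate 1 at 6.99% of the sites inside, 11.4% of those 20 to 100 kb away and 8.13% of those over 100 kb away. In replicate 2 these were 17.0%, 22.1% and 15.7%, so the order of sites inside and sites over 100 kb away differed between the libraries. The study's reporting summary lists far fewer reads for CTCF siRNA replicate 1 than for replicate 2. Depth was not accounted for, so the 2 libraries cannot be compared directly.

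**Figure D4:**
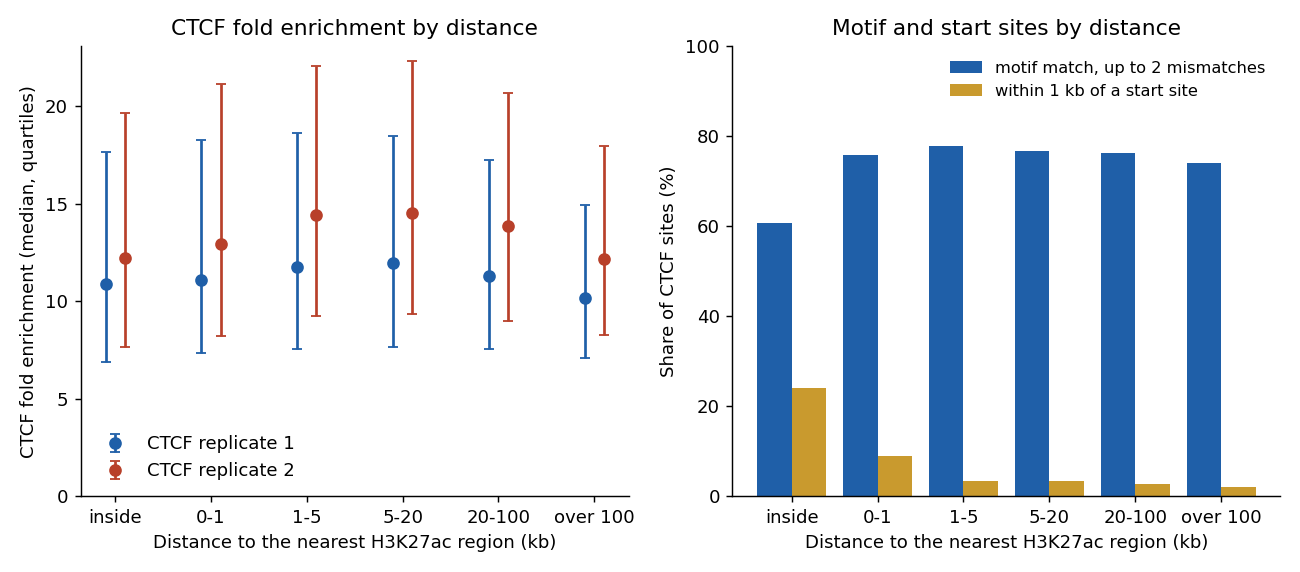
Left, CTCF fold enrichment (median and quartiles of sites) in each CTCF library by distance in kb to the nearest H3K27ac region. Right, share of CTCF sites (%) with a motif match of up to 2 mismatches and share within 1 kb of a protein-coding start; medians stay between 10.2 and 14.5, while sites inside have the motif least often, 60.7%, and lie at starts most often, 24.1%.

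Of 22 androgen-induced genes, 19 had H3K27ac within 1 kb of a start, 1 had CTCF within 1 kb and 9 within 5 kb. Over all 20090 protein-coding genes 55.9% had H3K27ac within 1 kb of a start, and 11.2% had CTCF within 1 kb and 26.5% within 5 kb. The gene with CTCF within 1 kb was TRPM8, which encodes a cold-activated ion channel. A site of 5.99 and 6.09 lay 9 bp from an annotated start that had no H3K27ac within 1 kb. This is not the start used for the TRPM8 locus below. Of the 11221 protein-coding genes with H3K27ac at a start, 14.4% had CTCF within 1 kb and 29.9% within 5 kb, and of the 8869 without it 7.26% and 22.3%. Of 15 housekeeping genes, 13 were acetylated at a start and 4 had CTCF within 1 kb of any annotated start. Among these were PGK1 of glycolysis, the ribosomal gene RPLP0 and the actin gene ACTB. At ACTB the site (24.4 and 11.7) lay 202 bp from a start outside the acetylated stretch described below. The CTCF sites nearest to that stretch lay 29740 bp to its left and 24877 bp to its right. Of 13 genes for CTCF, cohesin and their partners, 13 were acetylated and 2 had CTCF within 1 kb, namely the cohesin subunit genes STAG1 (23.2 and 7.86) and STAG2 (18.5 and 7.12). The lists are short, and their shares are not set apart from those of all genes.

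At KLK3 and KLK2, the genes of prostate-specific antigen and a related secreted protease, acetylation formed a stretch of 77900 bp (chr19:51335801-51413700) in 3 regions that covered 74500 bp. It held a single CTCF site, near its right end, with a fold enrichment of 8.45 and 15.6. The nearest sites beyond lay 37517 bp to the left (8.20 and 12.7, plus strand) and 12002 bp to the right (11.4 and 13.9, minus strand), a convergent pair.
TMPRSS2 stretch, chr21:42832694-42832747, minus strand: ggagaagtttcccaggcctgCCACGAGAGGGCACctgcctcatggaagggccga
FOXA1 start, chr14:38063533-38063586, minus strand: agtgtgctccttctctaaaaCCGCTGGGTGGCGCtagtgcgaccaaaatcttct
GAPDH intron, chr12:6647190-6647243, minus strand: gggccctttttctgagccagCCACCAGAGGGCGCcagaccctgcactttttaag

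These 3 sequences are shown for sites inside the stretches of well-known genes. At TMPRSS2, an androgen-induced protease gene, the stretch of 50800 bp had a site near each end: the one shown lay 1332 bp from its left end (18.3 and 21.7), and one without a motif lay 959 bp from its right end (5.65 and 10.8). FOXA1, a pioneer factor of prostate enhancers, had a stretch of 75500 bp with a single site at the start of the gene (11.5 and 11.1). GAPDH, of glycolysis, had a single region of 10850 bp with a site of 22.3 and 26.2 whose motif had no mismatch.

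SLC45A3 had most sites of these loci: in a stretch of 35000 bp, 1 in a gap (39.2 and 51.2, shown above) and 2 inside regions (16.4 and 23.1, and 14.7 and 19.7). HOXB13, a homeobox gene of the prostate, had 1 site inside a stretch of 21700 bp (16.3 and 20.8). FKBP5, PMEPA1 and ACTB had stretches of 3050, 4350 and 9650 bp with no CTCF site inside or in a gap, and TRPM8 lay 4183 bp from a region of 2850 bp that also held none.

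The 3 widest stretches held few sites. A stretch of 333650 bp on chromosome 21 that overlapped no protein-coding gene (chr21:17648201-17981850) held 1 site, of 5.99 and 6.48. One of 302000 bp at PPP3CA, a calcineurin gene, held 1 of 7.41 and 13.5, and one of 245700 bp at KDM6A, a histone demethylase gene, held 2, of 6.79 and 8.94 and of 6.20 and 10.8. All 4 sites lay inside regions, over 45 kb from the ends of their stretch. Of the 15 stretches examined 7 had a motif at the nearest site on both sides, and 6 of these pairs were convergent (among them KLK3 and KLK2 together, FKBP5, HOXB13, PMEPA1 and ACTB). Over all stretches with both neighbours within 500 kb the convergent share was 31.7%, and 37.9% for those of 20 kb or more. The genes were chosen because they are well known, and their count was not tested.

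**Figure D5:**
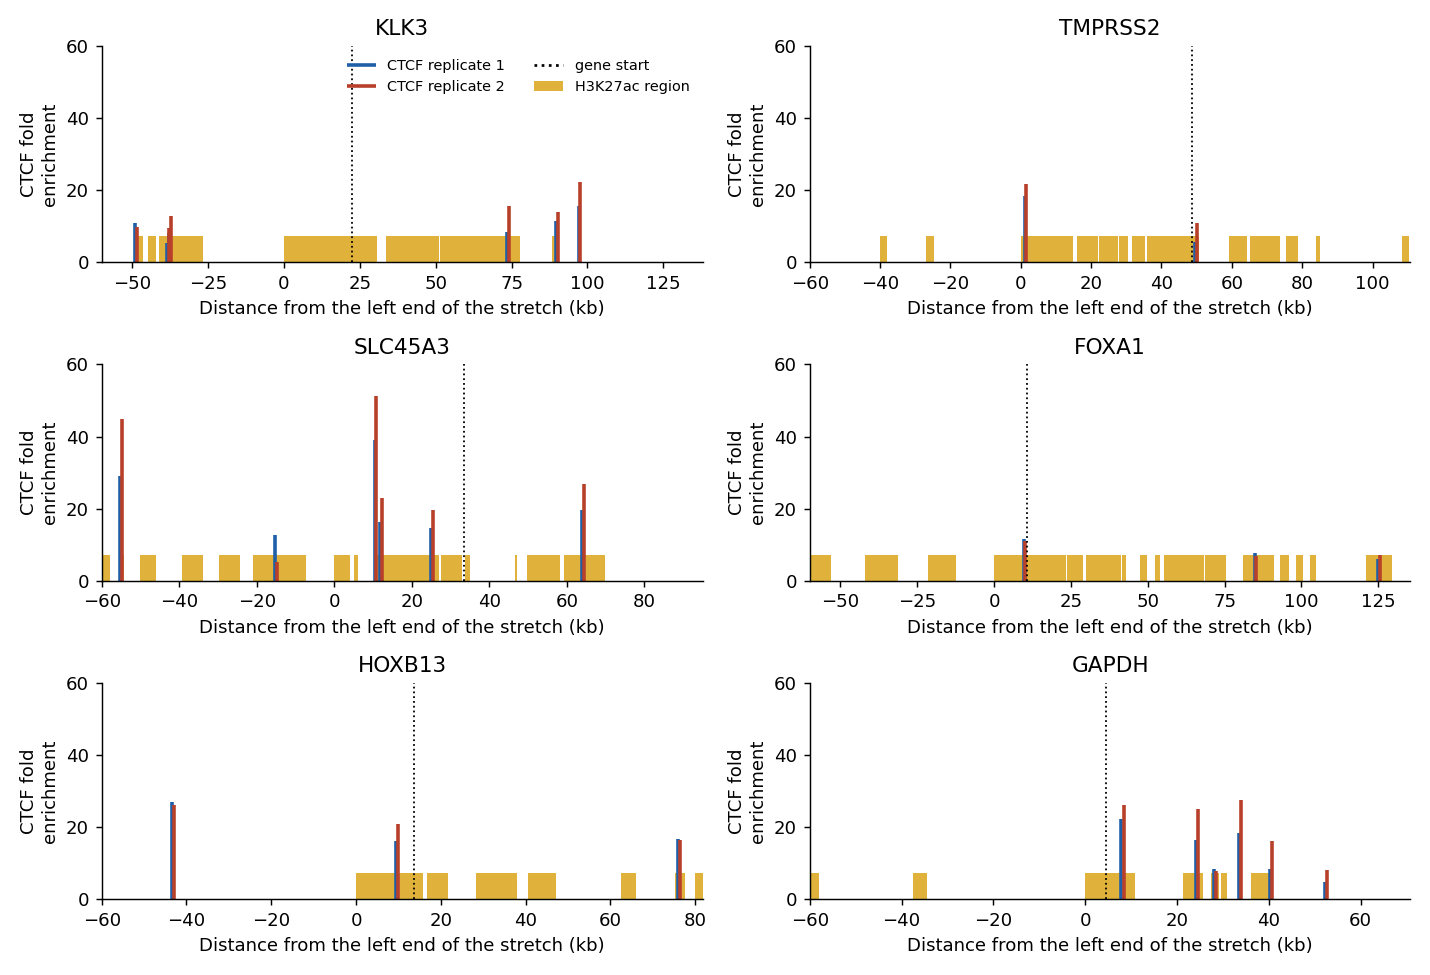
CTCF fold enrichment (vertical lines, 1 colour per CTCF library) and H3K27ac regions (bars along the axis) at 5 prostate gene loci and GAPDH, by distance in kb from the left end of the acetylated stretch at the gene, with 60 kb on either side. The dotted line is the gene start; most of the stretch at KLK3 has no CTCF, while SLC45A3 has 3 sites in or between its regions.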

How the data were processed

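ChIP-seq of CTCF and H3K27ac from control siRNA LNCaP cells was used, 2 libraries each, with H3K4me3 and CTCF siRNA lists for single sentences. Per the labels and the study's methods, Bowtie was used by the authors to align the reads to hg19, and they called CTCF peaks with MACS2 and histone regions with PeakRanger, per library, without pooling. The deposited CTCF lists give the fold enrichment, a ratio to local background not scaled between libraries, and p-values and q-values as −log10 (largest q-values 0.0487 and 0.0446). The deposited H3K27ac lists give a score without a stated meaning, used only in an alternative. Called regions have 50-bp edges and depend on depth and on the caller's smoothing.

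Peaks overlapping by at least 1 bp were merged. A site's position is the mean summit, and distances run to the nearest region edge. Gap density was compared with flanks at equal distance in 100-bp steps. Starts are those of GENCODE release 44 basic protein-coding transcripts on hg19. The sites named are the 3 with the highest mean fold enrichment in each position (chromosome 8 left out), and the loci and lists are known prostate, androgen-induced, housekeeping, cohesin and cell type genes. The scripts were tested on a simulated chromosome. Python 3.11.15, numpy 2.4.6, pandas 2.3.3, pysam 0.24.0 and matplotlib 3.10.9 were used. Sites, lists and comparisons were chosen with earlier results of these data known. A few sites and genes are not reported here.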

Additional observations from a re-analysis of the deposited data

How the results depend on the processing

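Of the 6 summary values, the share inside has no reference value and so no direction to keep. Among the other 5, all but 1 kept their direction in all alternatives. The value that changed direction was the fold enrichment inside relative to sites over 20 kb away, 0.963. It was 1.05 against sites over 100 kb away and 1.08 for motif sites only (1.006 and 1.008 with the enrichment of CTCF replicate 2). It was 0.948 with only bases covered in both H3K27ac libraries, 0.916 with the 50% of each H3K27ac list with the lowest scores, 0.976 without sites at starts, and 0.917 to 0.980 without one library. The share inside, 16.1%, was 21.0% with sites and regions of either library, 11.6% with the 50% of lowest scores, 13.1% without sites at starts, 13.3% for motif sites and 15.7% to 18.7% without one library. Its ratio to moved positions, 2.34, was 2.60 with only shared bases, 1.98 without starts, 1.97 for motif sites and 2.30 to 2.54 without one library. The edge ratio, 0.340, was 0.444 with either library, 0.387 with shared bases, 0.382 with the 50% of lowest scores, 0.366 without starts, 0.361 for motif sites, 0.523 with a window of 250 bp, 0.291 with 1000 bp and 0.352 to 0.408 without one library. The gap ratio, 0.722, was 0.873 with either library, 0.789 with stretches joined over 10 kb and 0.772 to 0.860 without one library. The share of motifs pointing towards a stretch, 52.1%, was 53.1% with shared bases, 55.2% with stretches joined over 2 kb, 59.7% within 500 bp of the end and 51.6% to 53.0% without one library. The causes were not tested. The other alternatives moved a value by less than the SD over the 4 library combinations. Those on motif sites, 500 bp, flanks of any stretch, assembly gaps and the longer moves at ends and gaps were chosen after seeing the data. Leaving out 100 kb around assembly gaps changed none of the 6 by that much. No paired analysis was possible because no 2 groups of samples were compared. Each main contrast was made among the sites merged over both CTCF libraries, and its range over the library combinations is given in the text. The main values 2.34, 0.340 and 0.722 lay below those ranges, and 0.963 lay above its range. The lists hold no depth, so an absent peak shows only that no peak was called.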
